A study of Rattus norvegicus with 14 samples.

Results

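Cholesterol synthesis and uptake was followed through 30 listed genes, chosen by name for their place in sterol synthesis, in its control by SREBP2 and in the uptake, movement and storage of cholesterol. Of these, 29 had a row in the count table of 16816 rat genes, of which 13369 had a count in any library. Matching was by symbol for 27 genes and by a RefSeq synonym for 2, with Acat2 read from the row Acat3 and Sc5d from the row Sc5dl, and the mevalonate kinase gene Mvk was matched to no row. All 29 passed the filter on low counts in every comparison, and the lowest count of any of them in a library was 20, for Tm7sf2.

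RNA-seq was performed on PCCL3 cells, a rat thyroid follicular cell line, of which PPFP cells stably carried a myc-tagged PAX8-PPARG fusion protein of human sequence and EV cells the empty vector. PPFP joins the thyroid factor PAX8 to PPARG and occurs in some thyroid carcinomas. Both lines were grown with serum, thyrotropin and insulin and received DMSO or 1 μM of the PPARG agonist pioglitazone, from a DMSO stock, for 16 hours. Each of the 4 groups had 3 libraries, from 3 independent experiments. Each genotype was 1 stably transfected line, whether or not a single clone, so the fusion and anything else that differs between the lines cannot be told apart.

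Mammalian cells make cholesterol from acetyl-CoA through mevalonate, farnesyl diphosphate, squalene and lanosterol, and they also take it up in lipoproteins. When sterol in the endoplasmic reticulum is low, SCAP carries SREBP2 to the Golgi, where cleavage frees a transcription factor that switches on most enzymes of the pathway, and when sterol is high, INSIG proteins hold SCAP back. Many genes of this set are known to be switched on by SREBP2 together with the factors that bind CCAAT and GC boxes close to the start of transcription.

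RefSeq promoters from 250 bases before to 50 bases after the start (GRCr8) were matched for 25 of the 30 genes, Mvk included. The letters CCAAT, on either strand, stood in 19 of the 25 (76.0%), against 37.5% of all 33469 rat promoters of that length and 37.8% of the 8220 promoters of genes expressed here. The GC box GGGCGG, on either strand, stood in 20 of the 25 (80.0%), against 33.1% of all promoters and 62.9% of those of expressed genes. On either strand, the sterol element (ATCAC, any 1 base, then CCAC) stood in 0 of the 25 and in 0.269% of all promoters, and the PPARG-type repeat (AGGTCA, any 1 base, then AGGTCA) in 0 of the 25 and in 0.0538% of all promoters, which says only that these letters were not in this window. These matches describe the sequence only. Stretches of 29 bases around CCAAT boxes are shown for Hsd17b7, Msmo1 and Hmgcs1, enzyme genes to which the results below return, and for the control genes that hold the box, which are Srebf2, Insig1 and Insig2. They read 5′ to 3′ along the strand of the gene, with the box in capitals, as CCAAT or as its complement on the other strand, ATTGG.
Hsd17b7, chr13:84722914-84722942, minus strand: gggacttcctggATTGGctagggctcctg
Hsd17b7, chr13:84722824-84722852, minus strand: cgccgagttgcgATTGGcgggcccagcgc
Hsd17b7, chr13:84722763-84722791, minus strand: ggttgagccttgATTGGtcggggtgcgcg
Msmo1, chr16:29746928-29746956, plus strand: ccatccgcgcagCCAATggcagacgccgc
Msmo1, chr16:29746992-29747020, plus strand: cctcggcgcggaCCAATcgctgcacggcg
Msmo1, chr16:29747033-29747061, plus strand: gagtggggcggaCCAATtacgacaggagc
Hmgcs1, chr2:53382104-53382132, plus strand: cattttcctcccATTGGcagagagtgggt
Hmgcs1, chr2:53382159-53382187, plus strand: ctgagtccggtgATTGGctgagatagctg
Insig1, chr4:8057946-8057974, minus strand: cgccctcctcccATTGGctcccgcggcct
Insig2, chr13:35040143-35040171, minus strand: taccattgagacATTGGtctgcttcagtc
Srebf2, chr7:115543166-115543194, plus strand: cttcgcgctccgATTGGctaatgcaggcc
The promoter of Dhcr7, the gene with the lowest ratio of PPFP to EV cells below, held GC boxes but no CCAAT in this window.

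Libraries held between 23724703 and 35240176 counts on genes (median 28569951.5). Levels are given below as CPM (counts scaled to library size) after TMM scaling over the 12 libraries, in the order of replicates 1, 2 and 3, with means ± SD (n = 3). All 11 thyroid markers were detected, with summed levels of 10740 to 14620 CPM in EV cells and 10190 to 14310 CPM in PPFP cells. Of the adipocyte markers, Lep and Retn had no count in any library, whereas the sum of the 4 was 9.37 to 13.7 CPM in EV cells and 706 to 935 CPM in PPFP cells, nearly all of it from Cfd, and the part of this in the results was not tested. Marker sums were at most 34.5 CPM for fibroblasts (3 of 7 markers at 0), 7.09 CPM for leukocytes (2 of 6 at 0) and 0.0669 CPM for endothelial cells, and both erythroid markers were at 0. In RNA from whole cultures, fewer cells that express a gene and less RNA per cell cannot be told apart.

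The first question was whether sterol genes differed between the lines in the absence of pioglitazone. Without pioglitazone, 11 of the 29 genes had a lower level in PPFP than in EV cells and 1 had a higher level, at an adjusted p under 0.05. Those lower were Dhcr7, Hmgcs1, Msmo1, Fdft1 and Lss among the enzymes and Insig1 and Scap among the control genes. Npc1, Npc2, Soat1 and Mylip were lower among the genes of cholesterol uptake, movement and storage, while the enzyme gene Hsd17b7 was higher. The 11 lower genes are 37.9% of the set, against 23.1% of all 10264 genes tested, and the 1 higher gene is 3.45%, against 22%. Dhcr7 and Hmgcs1 also passed a fold change of 2, as did 14.6% of all genes. The median log2 fold change was -0.21 over the 29 genes and 0.00164 over all genes tested, and that of the 29 genes was -0.36 without EV replicate 2 and -0.05 without EV replicate 3. Adjusted p values come from the quasi-likelihood test in edgeR, corrected by the Benjamini-Hochberg method over all genes tested, unless another test is named, and they measure the spread between the 3 experiments.

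Among the 11 enzymes that act from squalene synthesis onwards, Dhcr7, which encodes the reductase that makes cholesterol from its immediate precursor, changed most. Its level was 39.5, 20.7 and 44.7 CPM in EV cells (34.96 ± 12.7) and 9.14, 6.84 and 7.35 CPM in PPFP cells (7.77 ± 1.21). The groups did not overlap, and the lowest EV library, replicate 2, was still more than the highest PPFP library. The log2 fold change was -2.14 (SE 0.28, adjusted p = 0.00071), a 4.42-fold lower level. Msmo1, which encodes a methyl sterol oxidase that works on lanosterol products, was at 159, 126 and 177 CPM in EV cells (154 ± 25.6) and 85.3, 72.0 and 77.7 CPM in PPFP cells (78.3 ± 6.71). It was lower in each PPFP library than in any EV library, with a log2 fold change of -0.95 (SE 0.13, adjusted p = 0.00078).

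Hsd17b7 went the other way. Its product reduces the keto sterol left by the removal of a methyl group from lanosterol, a later step of the same demethylation that begins with Msmo1, and it is also known to turn estrone into estradiol. Its level was 27.2, 18.8 and 31.5 CPM in EV cells (25.8 ± 6.45) and 47.1, 38.8 and 41.0 CPM in PPFP cells (42.3 ± 4.33). All PPFP libraries were above all EV libraries, with a log2 fold change of 0.74 (SE 0.18, adjusted p = 0.012). Nsdhl, which encodes the dehydrogenase of that demethylation, overlapped between the lines (EV cells 52.7 ± 14.0 CPM, PPFP cells 59.4 ± 4.25 CPM) and had a log2 fold change of 0.20 (SE 0.17, adjusted p = 0.39). The enzymes of 1 short stretch of the pathway thus included 1 gene that was lower, 1 that was higher and 1 that did not pass the test.

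Squalene synthase (Fdft1) was at 76.0, 57.5 and 87.1 CPM in EV cells and 53.6, 52.3 and 53.5 CPM in PPFP cells, with a log2 fold change of -0.44 (SE 0.14, adjusted p = 0.033). Lanosterol synthase (Lss) was at 133, 120.5 and 139 CPM and 109.9, 108 and 99.8 CPM, with a log2 fold change of -0.28 (SE 0.08, adjusted p = 0.024). Both groups were apart for both genes, by a narrow margin, and both calls were lost when any library other than EV replicate 2 was left out, at an adjusted p of 0.078 to 0.11 for Fdft1 and of 0.051 to 0.14 for Lss. The other 6 enzymes of this stage (Sqle, Cyp51, Tm7sf2, Nsdhl, Ebp and Sc5d) overlapped between the lines and did not pass the test. Squalene epoxidase (Sqle), for example, was at 483, 413 and 605 CPM and 561, 409.8 and 439 CPM, with a log2 fold change of -0.07 and a 95% interval of -0.38 to 0.25.

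Of the 5 measured genes that supply precursors and make mevalonate units, only Hmgcs1 passed the test, which 45.2% of all genes passed. It encodes the cytosolic synthase that condenses acetoacetyl-CoA with acetyl-CoA. Its level was 248, 159.6 and 313 CPM in EV cells (240.2 ± 76.8) and 101, 94.0 and 101 CPM in PPFP cells (98.7 ± 4.01). EV libraries spanned 1.958-fold and PPFP libraries 1.07-fold, without overlap, and the log2 fold change was -1.26 (SE 0.21, adjusted p = 0.0022). Its neighbour in the pathway, the thiolase Acat2, was at 142, 77.7 and 232 CPM in EV cells and 161, 97.7 and 106 CPM in PPFP cells, and these ranges overlapped, with a log2 fold change of -0.28 and a 95% interval of -0.99 to 0.43. Aacs, which activates acetoacetate, and Pmvk and Mvd, which act on mevalonate phosphates, had log2 fold changes between -0.11 and 0.07. None of the 3 isoprenoid genes passed the test, with log2 fold changes of -0.34 for the isomerase Idi1, 0.28 for farnesyl diphosphate synthase Fdps and -0.10 for geranylgeranyl diphosphate synthase Ggps1, at unadjusted p values of 0.23, 0.27 and 0.39, and 0 of the 3 were called by DESeq2 either.

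**Figure D1:**
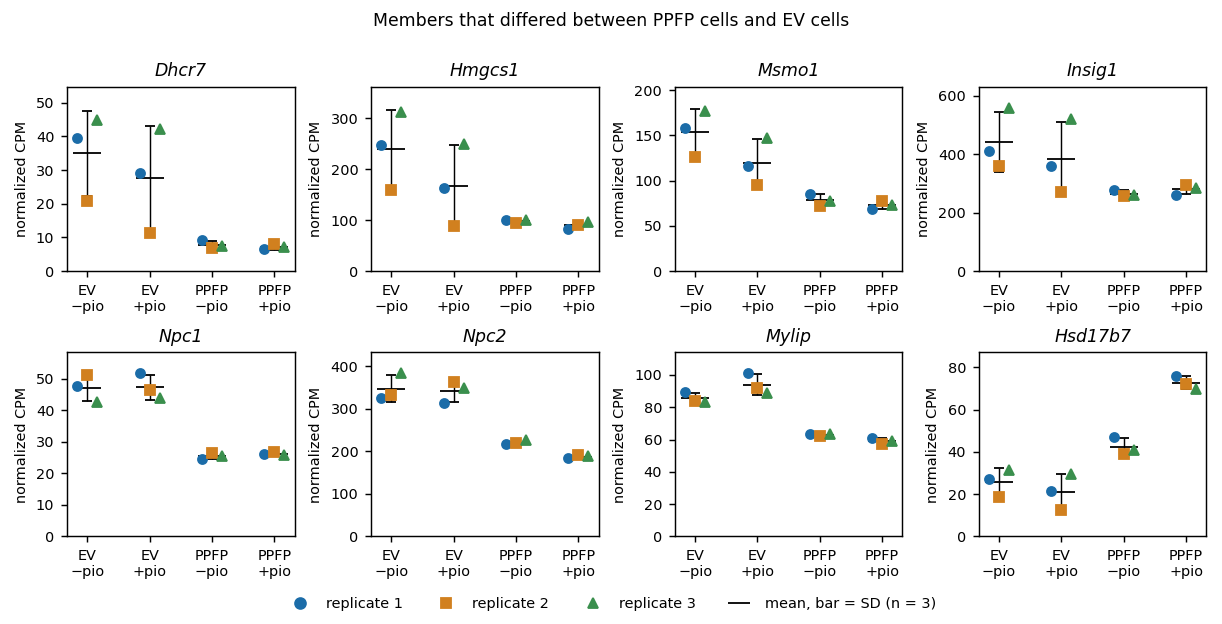
Normalized CPM (vertical axes, linear from 0) of 8 genes that differed between PPFP cells and EV cells, for the 4 groups along the horizontal axis, with 1 symbol per replicate number and a bar for the mean ± SD (n = 3). In the 7 panels from Dhcr7 to Mylip the PPFP libraries without pioglitazone sit below the EV libraries without it, as for Dhcr7 (at most 9.14 CPM against at least 20.7 CPM), whereas Hsd17b7 is higher in PPFP cells and higher again with pioglitazone.

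Of the 4 control genes, Insig1 and Scap were lower in PPFP cells, where 23.1% of all genes were lower. Srebf2 and Insig2 did not pass the test. Srebf2, the gene of SREBP2 itself, was at 194, 159 and 166 CPM in EV cells (173 ± 18.4) and 185, 206 and 192 CPM in PPFP cells (194 ± 10.98), with overlapping groups and a log2 fold change of 0.19 (SE 0.10, adjusted p = 0.18). Insig1, an anchor of SCAP that is itself switched on by SREBP2, was at 409, 358 and 557 CPM in EV cells (441 ± 103) and 277, 255 and 261 CPM in PPFP cells (264 ± 11.2). The groups were apart, and Insig1 was lower in PPFP cells with a log2 fold change of -0.71 (SE 0.15, adjusted p = 0.0058). Its paralog Insig2 was at 11.3, 13.4 and 11.3 CPM and 9.65, 12.2 and 11.1 CPM, overlapped, and had a log2 fold change of -0.11 (SE 0.14, adjusted p = 0.57). Scap, the escort of SREBP2, was at 104, 102 and 115 CPM in EV cells and 90.7, 92.4 and 90.7 CPM in PPFP cells. It was lower by a small amount, with a log2 fold change of -0.21 (SE 0.07, adjusted p = 0.04996), and leaving out any library other than EV replicate 2 ended the call, at an adjusted p of 0.11 to 0.19.

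Of the 6 genes for the uptake, movement and storage of cholesterol, 4 were lower in PPFP cells, where 23.1% of all genes were lower. They include Npc1 and Npc2, which together export cholesterol from lysosomes. Npc1 was at 47.8, 51.4 and 42.6 CPM in EV cells (47.3 ± 4.42) and 24.5, 26.6 and 25.5 CPM in PPFP cells (25.6 ± 1.05), which gave a log2 fold change of -0.87 (SE 0.11, adjusted p = 0.00052). Npc2 was at 326, 333 and 383 CPM in EV cells (347 ± 31.0) and 217, 218 and 226 CPM in PPFP cells (220.4 ± 4.68), which gave a log2 fold change of -0.63 (SE 0.08, adjusted p = 0.00066). For both genes every PPFP library lay below every EV library. Soat1, which stores cholesterol as esters, was at 82.4, 106 and 101 CPM and 70.1, 71.3 and 69.1 CPM, which gave a log2 fold change of -0.43 (SE 0.10, adjusted p = 0.010). Mylip, a ubiquitin ligase that is known to lower lipoprotein receptors, was at 89.5, 83.9 and 83.1 CPM and 63.2, 62.1 and 63.4 CPM, which gave a log2 fold change of -0.42 (SE 0.08, adjusted p = 0.0033). The groups were apart for Soat1 and Mylip as well. The HDL receptor Scarb1 and the cytosolic sterol carrier Stard4 overlapped and did not pass the test, with log2 fold changes of -0.27 (SE 0.23, adjusted p = 0.39) and -0.19 (SE 0.25, adjusted p = 0.57). Without EV replicate 2, Scarb1 was lower at -0.50 (adjusted p = 0.024), as was Aacs at -0.36 (adjusted p = 0.032).

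The same comparison in cells that had received pioglitazone asks whether the difference between the lines holds with the ligand present. It shares no library with the one above, but it compares the same lines. Same-numbered libraries with and without pioglitazone deviated together within each line, so this comparison is not separate support. With pioglitazone, 6 of the 29 genes were lower in PPFP cells (20.7%, against 26.4% of all 10291 genes tested) and 1 was higher (3.45%, against 26.3%). With all libraries kept, both shares are below those of all genes. Without EV replicate 2, 9 of the 29 genes were lower, against 25.3% of all genes, and 1 was higher, against 25.3%. Dhcr7, Msmo1, Npc1, Npc2, Mylip and Scap were lower and Hsd17b7 was higher, and Dhcr7 and Hsd17b7 passed a fold change of 2, as did 19.7% of all genes. The median log2 fold change was -0.07 over the 29 genes and 0.0121 over all genes, and that of the 29 genes was -0.24 without EV replicate 2 and 0.13 without EV replicate 3.

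Dhcr7 with pioglitazone was at 29.1, 11.3 and 42.2 CPM in EV cells (27.5 ± 15.5) and 6.43, 8.02 and 7.06 CPM in PPFP cells (7.17 ± 0.803), which gave a log2 fold change of -1.91 (SE 0.43, adjusted p = 0.0084). Hsd17b7 was at 21.5, 12.6 and 29.4 CPM in EV cells (21.2 ± 8.42) and 76.0, 72.2 and 69.9 CPM in PPFP cells (72.7 ± 3.09), 3.50-fold higher, with a log2 fold change of 1.81 (SE 0.27, adjusted p = 0.0012). These genes were again apart in opposite directions. Msmo1 was at 116, 95.7 and 147 CPM in EV cells and 68.8, 77.2 and 72.7 CPM in PPFP cells, which gave a log2 fold change of -0.69 (SE 0.15, adjusted p = 0.0076). Npc1 was at 51.7, 46.4 and 43.9 CPM and 26.0, 26.7 and 25.8 CPM, with a log2 fold change of -0.83 (SE 0.09, adjusted p = 0.00027). For Npc2 the levels were 312, 363 and 349 CPM and 184, 191 and 189 CPM, with a log2 fold change of -0.83 (SE 0.08, adjusted p = 0.00017). The lysosomal pair thus kept to a narrow range within each line while differing between them. Mylip was at 101, 91.9 and 88.6 CPM and 60.8, 57.3 and 59.3 CPM, with a log2 fold change of -0.64 (SE 0.08, adjusted p = 0.00056). Scap was at 106, 113 and 114 CPM and 84.9, 90.4 and 88.1 CPM, with a log2 fold change of -0.31 (SE 0.07, adjusted p = 0.0084).

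With pioglitazone 6 other genes did not pass the test but did so under at least 1 other setting. Hmgcs1 was at 163, 89.1 and 250.4 CPM in EV cells and 82.2, 90.7 and 97.1 CPM in PPFP cells, with a log2 fold change of -0.86 (SE 0.33, adjusted p = 0.060), and EV replicate 2 lay within the PPFP range. With all libraries kept, Hmgcs1 also passed with DESeq2 (adjusted p = 0.012), with edgeR's exact test (adjusted p = 0.0032), with no filter on low counts (adjusted p = 0.044), with all 12 libraries in one fit (adjusted p = 0.029) and with scaling by library size alone (adjusted p = 0.035), a setting chosen after seeing the data. Soat1 passed with the 12 libraries in one fit (adjusted p = 0.048) and with library size alone (adjusted p = 0.021). Without EV replicate 2, Hmgcs1 had a log2 fold change of -1.17 (adjusted p = 0.0027), Insig1 one of -0.63 (adjusted p = 0.018) and Fdft1 one of -0.50 (adjusted p = 0.010), against -0.43 (SE 0.22, adjusted p = 0.14) for Insig1 and -0.28 (SE 0.22, adjusted p = 0.33) for Fdft1 with all libraries. Without EV replicate 3, Fdps was higher at 0.91 (adjusted p = 0.017), Nsdhl higher at 0.54 (adjusted p = 0.036) and Soat1 lower at -0.34 (adjusted p = 0.039), so that 3 genes were higher in place of 1. With all libraries, Fdps had a log2 fold change of 0.56 (SE 0.31, adjusted p = 0.17), Nsdhl of 0.29 (SE 0.23, adjusted p = 0.33) and Soat1 of -0.26 (SE 0.11, adjusted p = 0.078). Insig1 was at 359, 271 and 520.3 CPM in EV cells and 261, 293 and 284 CPM in PPFP cells, and Srebf2 at 169, 119 and 165 CPM and 157, 188 and 185 CPM, with overlapping groups for both genes. Insig2 was at 10.2, 14.2 and 10.4 CPM and 11.7, 15.2 and 13.6 CPM, also overlapping, with a log2 fold change of 0.25 (SE 0.17, adjusted p = 0.26).

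**Figure D2:**
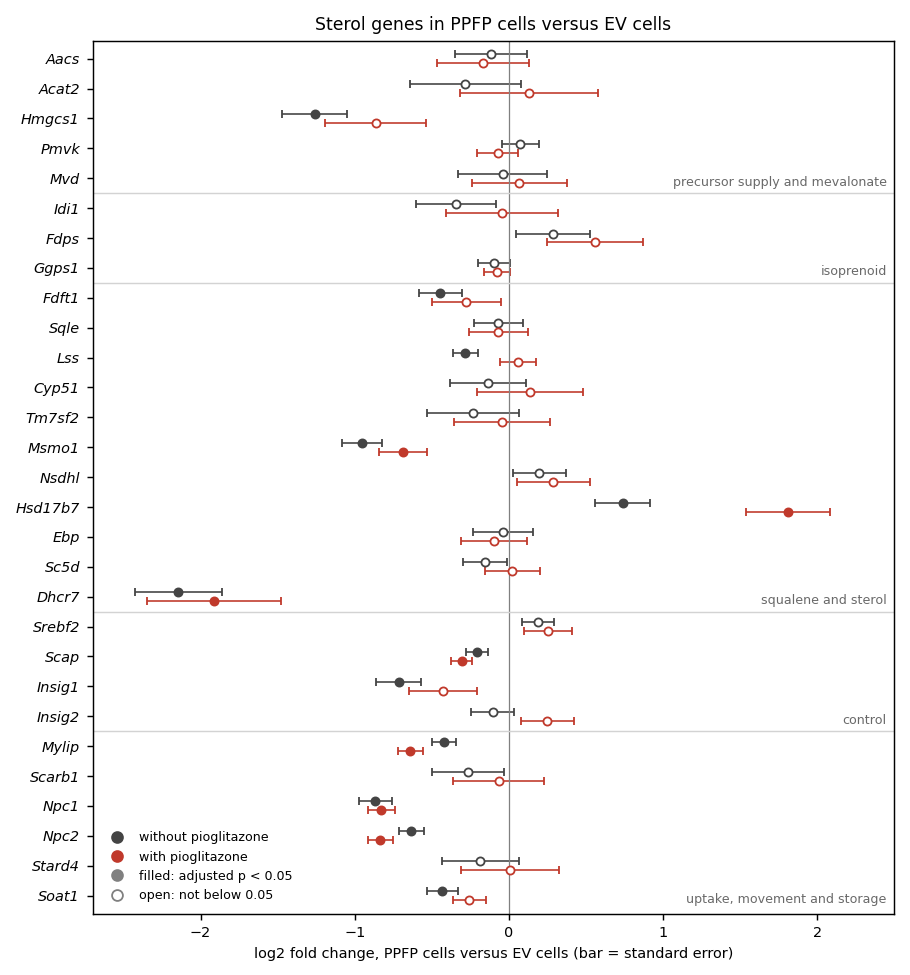
Log2 fold change of PPFP versus EV cells (horizontal axis, bar = SE) for the 29 genes, grouped by role, without pioglitazone in grey and with it in red, filled where the adjusted p was under 0.05. Dhcr7 (-2.14 and -1.91) and Hsd17b7 (0.74 and 1.81) are the farthest from 0 on the left and on the right.

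Sterol genes varied more between EV libraries than between PPFP libraries, which is given here as a description. The median SD of log2 CPM within a group was 0.306 in EV cells without and 0.452 in EV cells with pioglitazone for the 29 genes, against 0.156 and 0.158 for 10482 genes. In PPFP cells it was 0.115 without and 0.0837 with pioglitazone, against 0.131 and 0.12 for all genes. The spread was therefore above that of all genes in EV cells only. An SD above the 90th percentile of all genes was held by 11 and 14 of the 29 genes in the EV groups and by 1 of the 29 in each PPFP group. The typical gene of the set spanned 1.52-fold and 1.85-fold between its lowest and highest EV library, and 1.16-fold and 1.12-fold in PPFP cells.

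The same replicate numbers stood low and high in EV cells for most genes. Replicate 2 was the lowest and replicate 3 the highest in both EV groups for 20 of the 29 genes, and for 17 of the 19 measured synthesis enzymes, compared with 21% of all genes. Cyp51, the lanosterol demethylase, was at 373, 253 and 549 CPM in EV cells without and 295, 161 and 488 CPM with pioglitazone. In PPFP cells it was at 406, 312 and 333 CPM and 367, 328 and 322 CPM. Over the 6 libraries of a line this is a 3.42-fold range in EV cells and a 1.30-fold range in PPFP cells. The widest EV range was that of Acat2, 4.77-fold, and in PPFP cells Acat2 ranged 1.65-fold. Scarb1 was at 242, 150.0 and 314 CPM and 212, 117 and 298 CPM in EV cells, and Stard4 at 27.7, 16.7 and 36.2 CPM and 21.7, 12.3 and 33.7 CPM, in the same order.

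Srebf2, Scap, Insig2, Npc1, Npc2, Soat1, Mylip, Ggps1 and Tm7sf2 did not show that order in both EV groups. The genes outside it include 3 of the 4 control genes. They also include the 4 genes of uptake, movement and storage that were lower in PPFP cells without pioglitazone. In PPFP cells, replicate 1 was the highest in both groups for 11 genes, 10 of them synthesis enzymes, a share of 29 that compares with 37.8% of all genes. The 29 genes together took 0.326% to 0.492% of the counts in EV cells without pioglitazone and 0.265% to 0.453% with it, against 0.294% to 0.336% over both PPFP groups. EV replicates 1, 2 and 3 had 28472379, 28765485 and 29182499 counts in total without pioglitazone and 35240176, 30227482 and 27711659 with it. Their TMM factors were 1.049, 1.039 and 1 without it and 1.051, 1.035 and 1.006 with it. The part of totals or scaling in the order of the EV replicates was not tested.

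**Figure D3:**
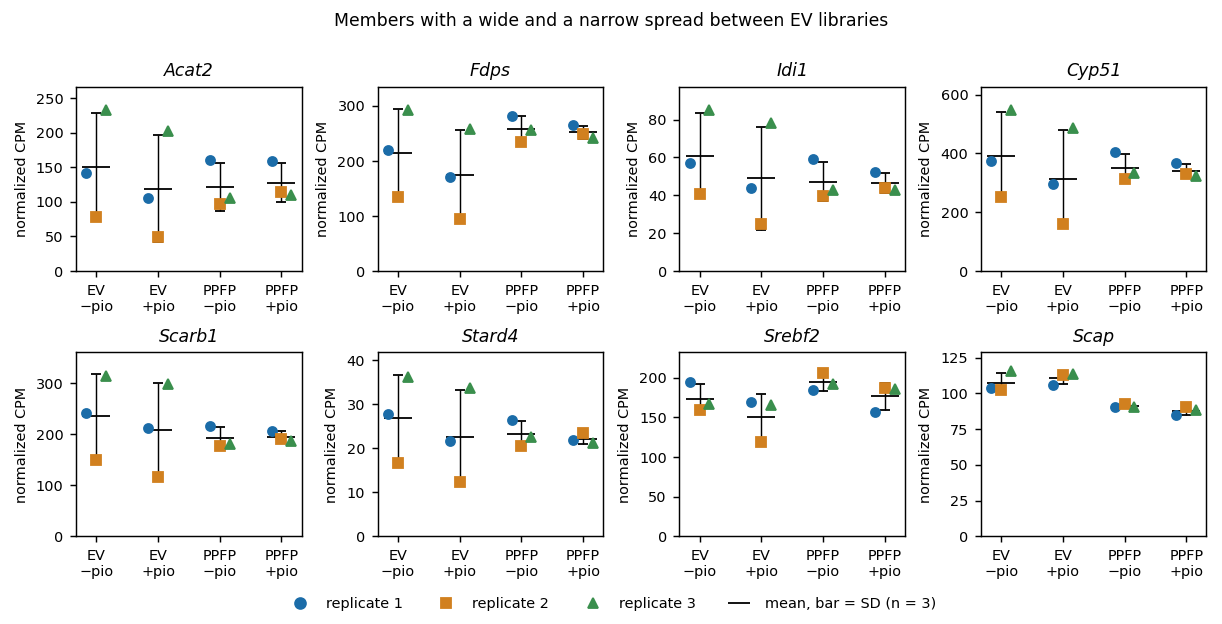
Normalized CPM (vertical axes, linear from 0) of 6 genes with a wide spread between EV libraries and of the control genes Srebf2 and Scap, for the 4 groups, with 1 symbol per replicate number and a bar for the mean ± SD (n = 3). In the first 6 panels EV replicate 2 is the lowest and EV replicate 3 the highest in both EV groups, as for Acat2 (77.7 and 232 CPM without pioglitazone), while Srebf2 does so in neither EV group and Scap only without pioglitazone.

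Pioglitazone was then compared with DMSO within each line. The response of PPFP cells shares its libraries with the comparisons of the lines, so its values are given beside them and not as separate support. In PPFP cells, 2 of the 29 genes were higher with pioglitazone (6.90%, against 7.63% of 10064 genes tested) and 1 was lower (3.45%, against 7.13%). These shares are near or below those of all genes. Hsd17b7 and Soat1 rose and Npc2 fell, none by more than 1.72-fold, while 2.42% of all genes passed a fold change of 2.

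Hsd17b7 rose from 47.1, 38.8 and 41.0 CPM to 76.0, 72.2 and 69.9 CPM, with a log2 fold change of 0.78 (SE 0.08, adjusted p = 0.0021). This call was lost in a fit that took its spread from all 12 libraries (adjusted p = 0.068) and held in the 6 fits with 1 library left out. Soat1 rose from 70.1, 71.3 and 69.1 CPM to 79.9, 85.0 and 83.3 CPM, with a log2 fold change of 0.24 (SE 0.06, adjusted p = 0.032). Npc2 fell from 217, 218 and 226 CPM to 184, 191 and 189 CPM, with a log2 fold change of -0.23 (SE 0.05, adjusted p = 0.028). The groups were apart for the 3 genes. The calls of Soat1 and Npc2 were small and fragile, since Soat1 was lost in the 5 fits that left out a library other than replicate 1 with pioglitazone (adjusted p of 0.060 to 0.14) and Npc2 in the 5 that left out a library other than replicate 1 without it (adjusted p of 0.051 to 0.12). Aacs was lower without replicate 1 with pioglitazone (log2 -0.40, adjusted p = 0.023).

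Libraries with the same replicate number deviated together within each line, although different numbers were correlated at up to 0.536 in PPFP cells. A model with the replicate number as a block gave more calls. With this block, 3 of the 29 genes were higher in PPFP cells with pioglitazone (10.3%, against 27.7% of all genes) and 10 were lower (34.5%, against 23.9%). Hsd17b7 (0.79, adjusted p = 2.55e-12), Insig2 (0.30, adjusted p = 0.0020) and Soat1 were higher. The lower genes were Pmvk (-0.33, adjusted p = 2.21e-05), Ebp (-0.27, adjusted p = 0.00095), Aacs, Npc2, Fdft1, Mvd, Sqle, Srebf2, Nsdhl and Hmgcs1, the last with -0.13 (adjusted p = 0.023). Pmvk, the phosphomevalonate kinase, was at 38.6, 40.0 and 41.6 CPM without and 27.8, 33.9 and 34.0 CPM with pioglitazone and did not overlap. Insig2 was at 9.65, 12.2 and 11.1 CPM without and 11.7, 15.2 and 13.6 CPM with pioglitazone, higher at each of the 3 replicate numbers. All 10 lower genes fell by a small amount, at most -0.33 on the log2 scale. Srebf2 was among them, with -0.14 (SE 0.04, adjusted p = 0.0043) from 185, 206 and 192 CPM to 157, 188 and 185 CPM.

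In EV cells, 0 of the 29 genes passed an adjusted p of 0.05 and 0% of all 10146 genes did, by edgeR's quasi-likelihood test, its exact test or DESeq2. At an unadjusted p under 0.05 the quasi-likelihood test found 0 of the 29 genes and 16 genes in all. Most of the set nonetheless had values on the same side of 0. The median log2 fold change of the set was -0.21, against -0.00176 over all genes, although it was -0.48 without replicate 3 of the treated cells and -0.0068 without replicate 3 of the DMSO cells. With all libraries, 18 of the 19 measured synthesis enzymes had a value below 0. Compared at the same replicate number, 21 of the 29 genes were lower with pioglitazone in all 3 (14.5% of all genes were). The 1 gene higher in all 3 was Mylip (13.8% of all genes were). In PPFP cells 12 of the 29 were lower in all 3 (32.4% of all genes were) and 5 were higher (35.9%).

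Hmgcs1 is an example in EV cells. Its log2 ratios with over without pioglitazone, at the same replicate number, were -0.61, -0.84 and -0.32. Msmo1 had ratios of -0.45, -0.40 and -0.26, and Cyp51 of -0.34, -0.65 and -0.17. These genes were lower at each replicate number. Dhcr7 had ratios of -0.44, -0.84 and -0.08, Insig1 of -0.19, -0.40 and -0.10 and Srebf2 of -0.20, -0.42 and -0.01. In a model blocked on replicate number, 21 genes were lower at an unadjusted p under 0.05 (72.4%, against 3.77% of all genes), and Mylip was the 1 gene that was higher (3.45%, against 2.19%). None passed an adjusted p of 0.05 in that model, where 1 gene of all did. The nearest was Msmo1, with -0.37 (SE 0.04, adjusted p = 0.054), followed by Hmgcs1 with -0.59 (SE 0.08, adjusted p = 0.13) and Mvd with -0.29 (SE 0.04, adjusted p = 0.13). The response of these genes in EV cells is thus reported as a shared direction and not as a set of calls. Npc1, Npc2, Soat1, Scap, Insig2, Ggps1 and Tm7sf2 had an unadjusted p of 0.05 or more in that model, with values between -0.18 and 0.15.

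**Figure D4:**
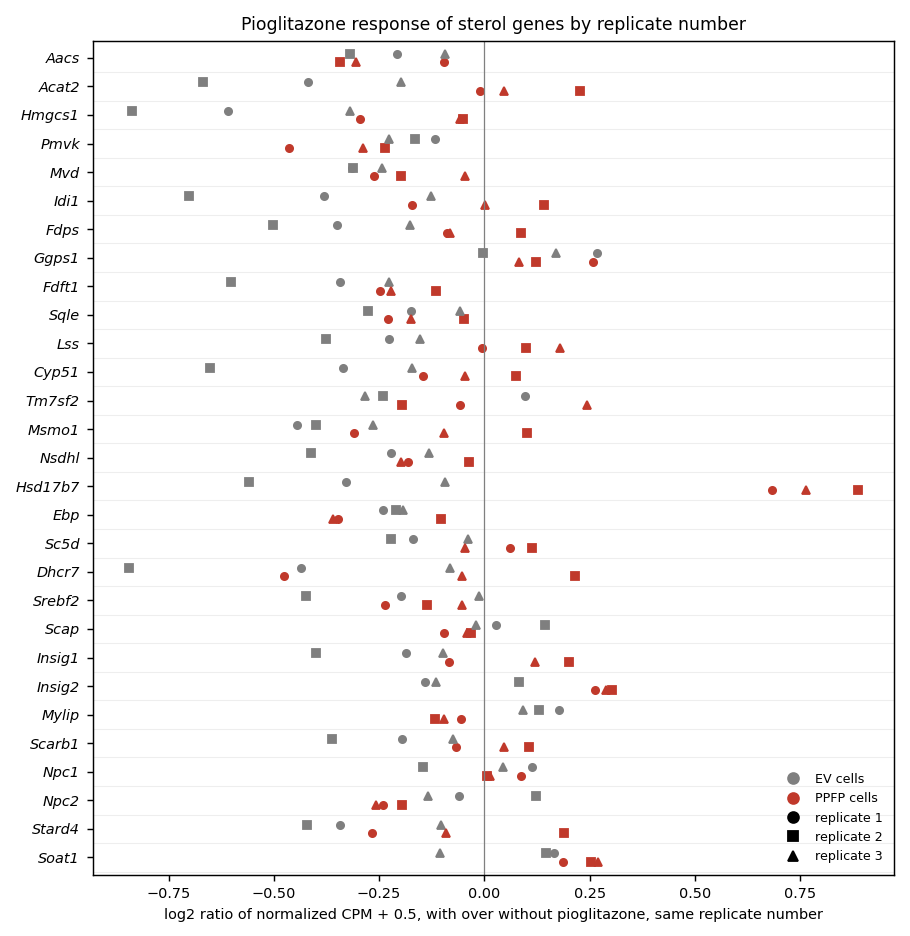
Log2 ratio of normalized CPM + 0.5 with over without pioglitazone at the same replicate number (horizontal axis) for the 29 genes, with EV cells in grey, PPFP cells in red and 1 symbol per replicate number. Grey symbols lie left of 0 at all 3 replicate numbers for 21 genes, and Hsd17b7 has EV ratios from -0.56 to -0.09 and PPFP ratios from 0.68 to 0.89.

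Whether the response to pioglitazone differed between the lines was tested as an interaction over the 12 libraries. None of the 29 genes passed an adjusted p of 0.05 in edgeR's quasi-likelihood test, where 2.64% of 10482 genes did, and 0 of the 29 passed in DESeq2, where 5.73% of all genes did. At an unadjusted p under 0.05 there were 3 (10.3%, against 13.3% of all genes), namely Hsd17b7, Lss and Mylip. Hsd17b7 had the largest difference, 1.06 (SE 0.35, adjusted p = 0.16). For Lss the difference was 0.33 (SE 0.13, adjusted p = 0.29) and for Mylip -0.23 (SE 0.10, adjusted p = 0.35).

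With a block for the replicate number within each line, the response was higher in PPFP than in EV cells for 12 of the 29 genes (41.4%, against 17.2% of all genes) and lower for 2 (6.90%, against 17.1%). The 12 were Hsd17b7 (1.08, adjusted p = 1.71e-06), Lss (0.33, adjusted p = 0.0011), Acat2 (0.49, adjusted p = 0.0012), Hmgcs1 (0.44, adjusted p = 0.0053), Fdps, Insig1, Cyp51, Insig2, Scarb1, Msmo1, Sc5d and Idi1. The PPFP response of these 12 did not pass the test with the block, except for Hsd17b7 and Insig2, which were higher, and Hmgcs1, which was lower, and the EV response had a value below 0 for all 12. Acat2, for example, had ratios of -0.01, 0.23 and 0.05 in PPFP cells and -0.42, -0.67 and -0.20 in EV cells. The 2 lower genes were Mylip (-0.23, adjusted p = 0.0030) and Npc2 (-0.22, adjusted p = 0.014). The block takes the spread between replicate numbers out of the error, and the biological coefficient of variation between libraries was 0.0363 with it and 0.142 without.

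A further 34 genes of the same pathway that are no part of the set were listed by role, and 28 of them were tested. They cover sterol sensing, ester turnover, sterol transfer and the branches that leave at farnesyl diphosphate. In PPFP versus EV cells, 5 were higher (17.9%, against 22% of all genes) and 10 lower (35.7%, against 23.1%) without pioglitazone. With it 5 were higher (17.9%, against 26.3%) and 12 lower (42.9%, against 26.4%). Gramd1b, a carrier of cholesterol from the plasma membrane, was at 15.4, 12.3 and 12.9 CPM in EV libraries and 85.8, 79.3 and 80.5 CPM in PPFP libraries when no pioglitazone was given, with a log2 fold change of 2.62 (SE 0.11, adjusted p = 5.7e-06). Soat2, which like Soat1 makes cholesterol esters, was at 3.48, 2.71 and 3.01 CPM and 0.0734, 0.739 and 0.253 CPM, with a log2 fold change of -3.06 (SE 0.53, adjusted p = 0.0026). Soat2 had between 2 and 109 counts per library, so its fold change is less precise. Both acyltransferase genes were lower in PPFP cells without pioglitazone. Nr1h3, which encodes the oxysterol receptor LXR alpha, was at 3.11, 2.71 and 2.06 CPM and 3.85, 6.43 and 5.49 CPM, with a log2 fold change of 1.02 (SE 0.26, adjusted p = 0.014).

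With pioglitazone the same 3 genes had the largest differences between the lines, with log2 fold changes of 2.91 (SE 0.08, adjusted p = 1.48e-06) for Gramd1b, 2.44 (SE 0.29, adjusted p = 0.00042) for Nr1h3 and -1.85 (SE 0.46, adjusted p = 0.012) for Soat2. Within PPFP cells pioglitazone raised 7 of the 28 genes (25%, against 7.63% of all genes) and lowered 2 (7.14%, against 7.13%). With the replicate block 14 were higher (50%, against 27.7%) and 4 lower (14.3%, against 23.9%). Nr1h3 rose from 3.85, 6.43 and 5.49 CPM to 8.88, 15.8 and 15.2 CPM, with a log2 fold change of 1.34 (SE 0.29, adjusted p = 0.027). Lipa, the lysosomal acid lipase that frees cholesterol from lipoprotein esters, rose from 71.1, 71.3 and 68.2 CPM to 124, 120.2 and 117 CPM, with a log2 fold change of 0.78 (SE 0.05, adjusted p = 0.00041). The sterol reductase gene Lbr rose from 66.9, 56.6 and 55.0 CPM to 82.4, 79.6 and 76.1 CPM, with a log2 fold change of 0.42 (SE 0.08, adjusted p = 0.019). In EV cells 0 of the 28 passed the test, as for all genes, and without the block Lipa was the 1 gene of the 28 whose response differed between the lines (3.57%, against 2.64% of all genes), by 0.70 (SE 0.08, adjusted p = 0.0011). With the block the response was higher in PPFP cells for 9 of the 28 (32.1%, against 17.2%) and lower for 5 (17.9%, against 17.1%). Lipa acts just before Npc1 and Npc2 in the lysosome, and it was higher in PPFP cells by 0.73 (adjusted p = 0.00025) without and 1.45 (adjusted p = 6.35e-06) with pioglitazone on the log2 scale, where those 2 genes were lower.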

How the data were processed

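Total RNA from 3 independent experiments was sequenced as paired-end reads, with all samples of an experiment on the same lanes. The authors aligned reads to rn4 with TopHat2 2.0.11 and deposited whole-number counts per gene symbol from HTSeq 0.6.1p1 (intersection-strict), without normalization or pooling; these versions are from the submitters' processing notes. The peak lists were not used here, because no rn4 annotation was at hand.

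The tests were run on these counts with edgeR 4.0.16 under R 4.3.3 (filterByExpr, TMM, quasi-likelihood test on the 6 libraries of a comparison, or on 12 for the interaction), with adjustment over all genes tested, and a gene was called at an adjusted p under 0.05. Each SE is the log2 fold change over the square root of F, and intervals are ± 1.96 SE. The alternatives were DESeq2 1.42.0, RLE factors, no filter, a minimum of 10 counts per library, the exact test, all 12 libraries, a replicate block, each library left out and, added after the data were seen, library size alone. The method was tested on simulated counts.

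Same-numbered libraries deviated together within PPFP cells (correlations of 0.744, 0.465 and 0.433) and EV cells (0.532, 0.729 and 0.773). The block was therefore used there beside the unblocked test. The highest correlation between different numbers was 0.536 in PPFP cells, above those of replicates 2 and 3, and -0.0403 in EV cells. No label ties a replicate number to an experiment. Between the lines, same-numbered libraries deviated together for replicate 2 only (0.317 without and 0.237 with pioglitazone). The genes and lists were chosen with earlier results of these data known. Values in every library are given for the 4 control genes and, per comparison, for up to 8 called genes with the largest changes, and otherwise for examples; of the further pathway genes, the 3 largest called changes per comparison were named, and Lipa between the lines was added after its values were seen. Promoter sequences are RefSeq's (GRCr8).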

Additional observations from a re-analysis of the deposited data

Results flagged for a closer look

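Hsd17b7 had values of opposite sign for pioglitazone in PPFP and EV cells. Its log2 ratios with over without the drug were 0.68, 0.89 and 0.76 for replicates 1, 2 and 3 of PPFP cells and -0.33, -0.56 and -0.09 for those of EV cells. The ratios were above 0 at all 3 replicate numbers of PPFP cells and below 0 at all 3 of EV cells. Of 10482 genes, 35.9% were above 0 at all 3 in PPFP cells and 14.5% below 0 at all 3 in EV cells. How many genes did both was not counted. The difference between the responses was 1.06 on the log2 scale (SE 0.35), which did not pass edgeR's quasi-likelihood test of the interaction (adjusted p = 0.16) but did with the replicate number as a block (adjusted p = 1.71e-06).

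Mylip had the reverse signs, on a smaller scale. Its log2 ratios were -0.05, -0.12 and -0.10 in PPFP cells and 0.18, 0.13 and 0.09 in EV cells. Of all genes, 32.4% were below 0 at all 3 numbers in PPFP cells and 13.8% above 0 at all 3 in EV cells. The difference between the responses was -0.234 (SE 0.10), with an adjusted p of 0.35 in edgeR's test of the interaction and 0.0030 with the block. Within either line alone, the Mylip response did not pass an adjusted p of 0.05, with or without the block.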

How the results depend on the processing

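Of the 12 calls between the lines without pioglitazone, 9 held in all 14 alternatives. The exceptions were Fdft1 (lost in 6), Lss (lost in 7) and Scap (lost in 9). The replicate block and the exact test were among the alternatives that lost both Lss and Scap. The 7 calls with pioglitazone held in all 14. No call changed its direction under any alternative that was run. With 1 library left out, between 8 and 13 genes were lower in PPFP cells without pioglitazone, against 16.3% to 24.1% of all genes. With pioglitazone between 6 and 9 were lower, against 21.6% to 28.6%. The number of genes higher was 1 without it (16.9% to 22.8% of all genes) and between 1 and 3 with it (19.3% to 26.7%). For the pioglitazone response of PPFP cells, leaving out 1 library gave 1 to 2 genes higher and 0 to 1 lower. Over all genes, 3.34% to 7.67% were higher in these fits and 2.89% to 9.36% lower. DESeq2 called 2 genes higher and 4 lower there (9.91% and 10.1% of all genes), the exact test 1 higher and 0 lower (6.29% and 6.6%), the fit of all 12 libraries 0 higher and 0 lower (5.1% and 5.91%), and library size alone 1 higher and 3 lower (6.05% and 8.62%). With the replicate block 10 were lower, and for the difference between the responses the block called 12 higher and 2 lower, against 0 and 0 without it. Between the lines, same-numbered libraries did not all deviate together, with correlations of -0.252, 0.317 and -0.322 without and -0.248, 0.237 and -0.380 with pioglitazone. The block left 1 gene higher and 9 lower there without pioglitazone (19.6% and 19.9% of all genes). With pioglitazone it left 1 higher and 6 lower (22.3% and 21.8%). Over all genes it gave 4050 and 4545 calls. With pioglitazone, scaling by library size alone moved the median of all genes to -0.125 and that of the 29 genes to -0.20. Levels between the lines are thus relative to the scaling. The lowest gene, Tm7sf2, had 20 to 57 counts per library, which limits what could be detected for it.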
